A study of Sus scrofa with 45 samples.

Results

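Whole blood of male miniature pigs was compared after 19 weeks on feed rich in fat and cholesterol (HFCD) or on control feed. The comparison used the 8 arrays that the labels title as whole blood at 19 weeks of HFCD (4 arrays) or control (4 arrays), of 45 arrays in the series. The other arrays hold earlier and later whole blood samples, isolated white blood cells, and pigs on a diet with added sucrose (HFCSD). All pigs were of the Clawn miniature breed, specific pathogen-free, and began their diets at 12 weeks of age, so that they were 31 weeks old at this sampling. The HFCD feed held 15% lard and 2% cholesterol, 5 pigs were fed each diet, and the control pigs ate standard dry feed. The labels describe each array as RNA of a miniature pig, from blood kept in PAXgene tubes, which lyse all blood cells together. The comparison asks which blood transcripts differed on this diet in the middle of the feeding period.

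Cells that take up cholesterol sense its oxidised forms through the nuclear receptor LXR, which switches on ABCA1, the transporter that hands cholesterol to apolipoprotein A1. The same cells lower their own sterol synthesis through the SREBP factors. Interferon, in contrast, is a signal of infection and inflammation: it induces antiviral proteins such as RSAD2 and MX2, the chemokine CXCL10, and the parts of the proteasome that cut peptides for MHC class I.

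Under HFCD the transcript of ABCA1 rose 4.83-fold in whole blood at 19 weeks, and that of WNT10B, a secreted WNT ligand, fell by 2.44 on the log2 scale. These genes and an unnamed transcript that rose were the 3 of 16613 tested probes past a limma adjusted p of 0.05. After normexp background correction the change of WNT10B was -1.34. The count past that threshold was 0 with a term for scan day, and 0 without control replicate 4 or HFCD replicate 3. Most interferon-induced genes were higher in the HFCD pigs without passing that threshold, with CXCL10 4.03 and RSAD2 2.68 above control on the log2 scale. The cytokine IL18, the lectin LGALS3 and the sterol synthesis enzyme SQLE were lower, also without passing that threshold. All 7 tested T cell markers had a positive change, but none passed adjustment and their summed levels overlapped between the groups. Platelet markers were low on 2 of the 4 HFCD arrays.

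Each array carried 43603 porcine probes of 60 bases, and intensities are given on the log2 scale after quantile normalization. A probe counted as detected on an array when the scanner software had marked it well above background, which held for 42.01%, 41.65%, 43.87% and 51.04% of spots in control replicates 1 to 4. In HFCD replicates 1 to 4 the share was 43.54%, 40.11%, 39.56% and 37.63%. The shares overlapped between the groups and their means differed by -4.43 percentage points, from 44.6% (SD 4.37) in controls to 40.2% (SD 2.46) under HFCD (n = 4 each, exact permutation p = 0.0857, two-sided). A probe was tested when it was detected on all usable arrays of the control or of the HFCD group. Of the 16613 tested probes, 2171 passed this filter through the control arrays only and 259 through the HFCD arrays only. A probe that passed only through the group where it is brighter had to differ, so no p-value of this comparison is given for such probes below.

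2 arrays need a word before the results. HFCD replicate 1 stood apart from its group: it correlated with HFCD replicates 2 to 4 at 0.867 on average, while each of those averaged 0.932 to 0.939 within the group. Its correlations with the 3 HFCSD arrays of the same week were higher, at 0.920, 0.956 and 0.946, and so were those with control replicates 2 to 4, at 0.903, 0.908 and 0.906, while it was 0.850 with control replicate 1. Results are therefore also given without it. Control replicate 1 was scanned on the same day as all HFCD arrays, and control replicates 2 to 4 on another day. It correlated at 0.961 (SD 0.00717, 3 pairs) with HFCD replicates 2 to 4 and at 0.934 (SD 0.00870, 3 pairs) with the other controls. The scan day and the diet therefore cannot be told apart, except through control replicate 1. A change "within the scan day" below is the HFCD mean minus that array, which is also what a limma fit with a term for scan day returns.

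The blood cell markers were those of whole blood. GNLY, a cytotoxic granule protein of NK cells and T cells, MMP9 of neutrophils, the lysozyme gene LYZ of monocytes, CD3D of T cells and ITGA2B of platelets were the brightest genes of their lists on these arrays. The haemoglobin gene HBE1 was the only tested gene of the red cell list, and TFRC was not detected on any of the 8 arrays. Albumin (ALB), the leading liver transcript, was not detected on any of them, nor were the muscle gene CKM and the adipose gene PLIN1. A lower level of a marker in whole blood can come from fewer cells of that type or from less RNA per cell, and these cannot be told apart here.

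HFCD replicate 1 was the lowest of the 8 arrays in red cell, platelet, liver, skeletal muscle, neutrophil, and eosinophil or basophil markers. Its HBE1 intensity was 4441 on the linear scale, while control replicates 1 to 4 read 22662, 19551, 13546 and 10712 and HFCD replicates 2 to 4 read 19180, 19622 and 19622. The summed intensity of the 6 tested platelet markers (of 8 on the array) was 19136, 17178, 16175 and 13106 in control replicates 1 to 4 and 2130, 17378, 23685 and 7539 in HFCD replicates 1 to 4. HFCD replicates 1 and 4 thus lay below all controls in platelet markers, while HFCD replicates 2 and 3 lay within or above the control range. The platelet chemokine PPBP read 10.34, 10.07, 10.34 and 9.47 in the controls and 6.82, 9.82, 10.24 and 6.34 in HFCD replicates 1 to 4. The adhesion receptor SELP read 11.65, 11.89, 12.02 and 11.62 in the controls and 9.16, 11.15, 11.78 and 8.17 under HFCD. HFCD replicates 1 and 4 were far below the controls in both genes, HFCD replicate 2 was slightly below them in SELP, and HFCD replicate 3 lay in the control range. The list's median log2 change was -1.47, and -0.67 without HFCD replicate 1 and -1.32 within the scan day, beside -0.03 over all tested probes. SELP alone of the 6 was lower at an unadjusted limma p under 0.05, beside 6.79% of all tested probes.

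**Figure D1:**
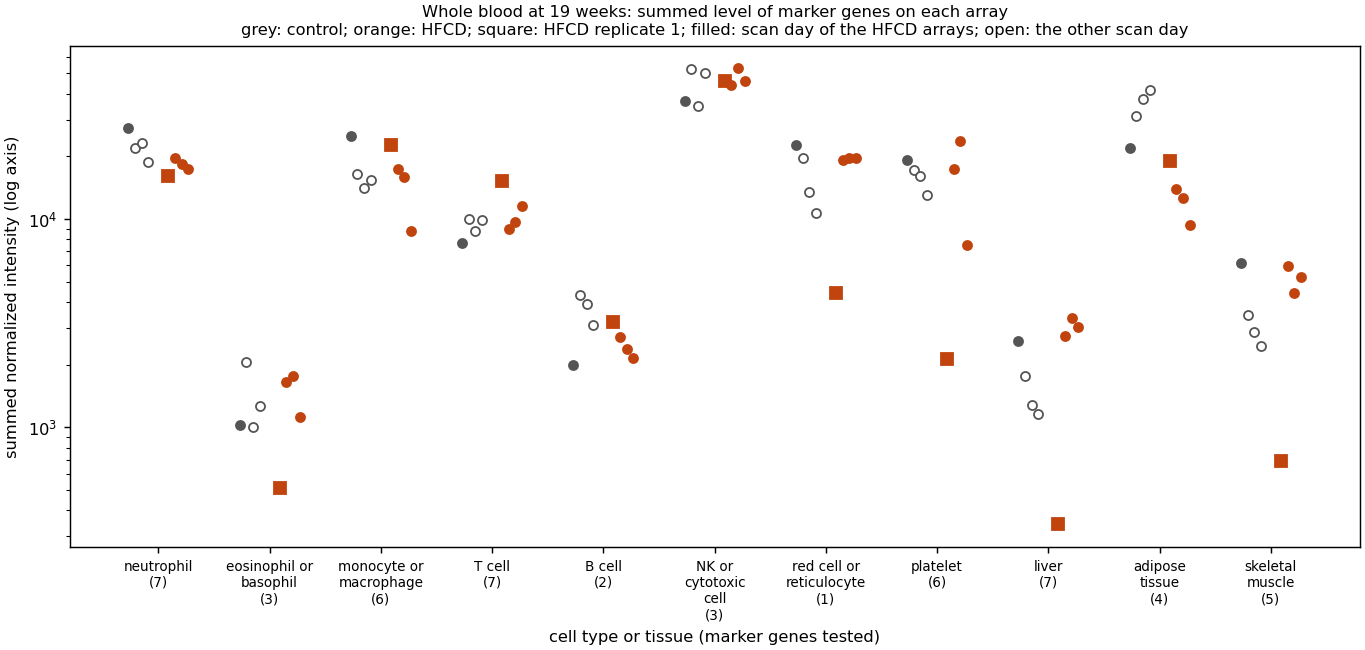
Summed normalized intensity of the tested marker genes of 11 cell types or tissues (log axis) on each of the 8 whole blood arrays at 19 weeks, grey for control and orange for HFCD. Points are arrays, the square is HFCD replicate 1, filled points share the scan day of the HFCD arrays and open points are control replicates 2 to 4. HFCD replicate 1 is the lowest array for red cell, platelet, liver, skeletal muscle, neutrophil, and eosinophil or basophil markers, and the highest for T cell markers.

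Markers of T cells leaned upward. All 7 tested genes of the list had a positive change, with a median of 0.66, and 3 of them (CD8A, CD8B and CD2) were higher at an unadjusted limma p under 0.05, a call made upward for 5.68% of all tested probes and downward for 6.79%. CD8B, a chain of the co-receptor of cytotoxic T cells, read 6.70, 6.37, 6.66 and 6.31 in control replicates 1 to 4 and 7.31, 7.20, 7.08 and 7.83 in HFCD replicates 1 to 4. All HFCD arrays lay above all controls, a separation that held for 3.41% of tested probes, and 4.05% separated downward. The adhesion receptor CD2 read 7.05, 7.28, 6.60 and 6.76 in controls and 7.97, 7.65, 8.27 and 7.70 under HFCD, also without overlap. The changes were 0.85 (SE 0.24, adjusted p = 0.209) for CD8B, 0.54 after normexp background correction, and 0.98 (SE 0.29, adjusted p = 0.222) for CD2, whose other probe gave 0.42 with overlapping groups. The list's median was 0.65 within the scan day and 0.47 without HFCD replicate 1. The summed level of the list, led by CD3D, was 7647, 10025, 8735 and 9948 in the controls and 15291, 8925, 9733 and 11508 under HFCD. These sums overlapped. CD8A read 8.55, 8.72, 8.72 and 8.65 in controls and 10.63, 8.73, 9.10 and 9.40 under HFCD, apart only narrowly in HFCD replicate 2, and its change was 0.81 (SE 0.37, adjusted p = 0.399) and 0.42 without HFCD replicate 1. With a scan day term 0 genes of the list passed the unadjusted limma threshold. The brightest CD3D probe had a change of 0.02, and its other probes 0.65 and 0.76, both with the groups apart. CD4 was detected on 3 of the 8 arrays and was not tested, and CTLA4 on none.

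The other leukocyte lists had medians closer to 0 against all 4 controls. The neutrophil list (7 tested, median -0.34, -1.24 within the scan day and -0.22 without HFCD replicate 1) summed to 27355, 21868, 23220 and 18706 in controls and to 16034, 19615, 18445 and 17404 under HFCD, with MMP9 the brightest. Its lowest member was DEFB1, a beta-defensin that this list places in neutrophils and that epithelia also make, which read 9.99, 9.98, 9.74 and 10.38 in controls and 8.73, 8.96, 8.52 and 7.61 under HFCD. DEFB1 was lower on every HFCD array than on any control, with a change of -1.57 (SE 0.30, adjusted p = 0.117), and another probe of it had a change of -1.52. The monocyte list (6 tested, median -0.11, -0.38 within the scan day and -0.31 without HFCD replicate 1) summed to 24926, 16392, 14054 and 15468 in controls and 22799, 17484, 15895 and 8726 under HFCD, led by LYZ, with SIGLEC1 and VCAN not detected. HFCD replicate 4 was the lowest array of that list, whose median ranged from -0.31 to 0.06 when 1 array was left out. The NK list (3 tested, median 0.19, -0.02 within the scan day and 0.33 without HFCD replicate 1) summed to 36938, 52410, 34785 and 50466 and 45924, 44106, 52854 and 45811, led by GNLY. The B cell list (2 tested, median -0.01, 0.60 within the scan day and -0.15 without HFCD replicate 1) summed to 1999, 4301, 3900 and 3100 and 3204, 2721, 2384 and 2159, led by CD40. The list of eosinophils and basophils (3 tested, median -0.27, -0.37 within the scan day and -0.03 without HFCD replicate 1) summed to 1027, 2051, 1000 and 1267 and 510, 1646, 1756 and 1121, led by GATA2. The groups overlapped in each of these 5 sums, and no gene of the monocyte, NK and B cell lists passed even the unadjusted threshold.

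Tissue markers were few. Of the liver list 7 of 24 genes on the array were tested, (median -0.16, -0.68 within the scan day and 0.47 without HFCD replicate 1), and 11, among them ALB, TTR and APOB, were detected on no array. Their sum, led by VTN, was 2586, 1771, 1283 and 1155 in controls and 343, 2755, 3352 and 3027 under HFCD. HFCD replicates 2 to 4 lay above all controls and HFCD replicate 1 far below them. Skeletal muscle markers (5 of 20 tested, median -0.63, -0.96 within the scan day and -0.21 without HFCD replicate 1), led by PYGM, summed to 6140, 3450, 2879 and 2468 and 689, 5952, 4419 and 5301. Of the adipose list 4 of 12 genes were tested (median -0.94, -0.89 within the scan day and -0.85 without HFCD replicate 1), and its sum, carried by the complement protease gene CFD, was 21946, 31234, 37542 and 41563 in controls and 18951, 13916, 12612 and 9364 under HFCD. CFD (adipsin) is also made by myeloid cells, and PLIN1, PPARG, LPL, CIDEA, CIDEC and AQP7 of the same list were not detected. CFD lay between 14.18 and 15.21 in the controls and between 12.74 and 14.03 under HFCD. All HFCD arrays lay below all controls, with a change of -1.37 (SE 0.32, adjusted p = 0.160), and -0.75 within the scan day.

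ABCA1 was the only gene of cholesterol efflux past adjustment. It read 9.14, 9.94, 9.94 and 9.54 in control replicates 1 to 4 and 12.32, 11.62, 11.91 and 11.80 in HFCD replicates 1 to 4. The groups were far apart: the lowest HFCD array stood above the highest control by more than the whole spread of either group. The means were 9.64 (0.38) in controls and 11.91 (0.30) under HFCD (mean (SD), n = 4 each), a rise of 2.27 (SE 0.24, limma adjusted p = 0.00940, higher on 4 of 4 HFCD arrays). At this threshold 0.0120% of tested probes rose and 0.00602% fell. Without HFCD replicate 1 the change was 2.14 (adjusted p = 0.0182). Within the scan day it was 2.77, with all 4 HFCD arrays above control replicate 1, and the adjusted p with a scan day term was 0.0653. Over all settings other than leaving out an array it ranged from 8.40e-10 to 0.366. It was 0.0716 without control replicate 4 and 0.0633 without HFCD replicate 3. The probe carries no pig gene name and was assigned to ABCA1 by the annotation's match of its assembled transcript to the mouse gene.

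The rest of the LXR and efflux list was mixed. Of 22 genes listed 10 were on the array and 4 were tested (median 0.73, 0.47 within the scan day and 1.34 without HFCD replicate 1). SCARB1, the receptor that exchanges cholesterol with high-density lipoprotein, read 11.40, 11.50, 12.05 and 11.92 in controls and 9.93, 11.11, 11.13 and 9.93 under HFCD. It was lower on every HFCD array than on any control, with a change of -1.19 (SE 0.34, adjusted p = 0.211), -0.88 within the scan day. PLTP, which transfers phospholipids between lipoproteins, read 7.75, 5.69, 6.43 and 5.75 in controls and 4.49, 8.50, 7.88 and 9.03 under HFCD. HFCD replicates 2 to 4 lay above all controls and HFCD replicate 1 below them, so that the change was 1.07 (SE 0.84, adjusted p = 0.655) with HFCD replicate 1 and 2.07 without it, 0.55 without HFCD replicate 4, and -0.27 within the scan day. NR1H3, which encodes LXR alpha, had a change of 0.38 (SE 0.40, adjusted p = 0.759), 0.61 without HFCD replicate 1 and 1.22 within the scan day. When 1 array was left out its change ranged from 0.11 to 0.61.

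Of the ABC transporter list 5 genes were tested, 4 with a positive change, and ABCA1 was the only one past the unadjusted threshold (median 0.62, 0.63 within the scan day and 0.25 without HFCD replicate 1). ABCB4, which flips phosphatidylcholine into bile in liver, read 6.81, 5.001, 4.497 and 4.15 in controls and 3.59, 6.77, 7.45 and 8.16 under HFCD. As with PLTP, control replicate 1 and HFCD replicates 2 to 4 were high and HFCD replicate 1 was low. The change was 1.38 (SE 0.90, adjusted p = 0.573), 2.35 without HFCD replicate 1, 0.82 without HFCD replicate 4, 0.78 after normexp background correction and -0.31 within the scan day.

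Sterol synthesis had 2 tested genes, and both had negative changes (median -1.04, -0.70 within the scan day and -1.44 without HFCD replicate 1). SQLE, squalene epoxidase, read 6.33, 6.89, 7.29 and 7.16 in controls and 6.15, 4.60, 5.09 and 4.99 under HFCD. Its HFCD arrays all lay below the controls, narrowly so in replicate 1. The change was -1.71 (SE 0.36, adjusted p = 0.123), -2.03 without HFCD replicate 1, -1.13 within the scan day and -0.78 after normexp background correction. MSMO1, a sterol demethylase of the same pathway, had a change of -0.36 (SE 0.44, adjusted p = 0.797), -0.85 without HFCD replicate 1, -0.04 without HFCD replicate 3 and -0.12 after normexp background correction, with HFCD replicates 2 to 4 below all controls and HFCD replicate 1 above them. Among 7 tested genes of sterol sensing and LDL uptake none passed the unadjusted limma threshold (median -0.32, -0.05 within the scan day and -0.03 without HFCD replicate 1). Of 24 tested fatty acid and lipid droplet genes (median 0.05, 0.19 within the scan day and -0.05 without HFCD replicate 1), UCP2, a mitochondrial carrier, was higher by 0.77 (SE 0.28, adjusted p = 0.311) and by 0.32 within the scan day, and CD36, the scavenger receptor and fatty acid transporter that platelets also carry, was lower, with a change of -1.58 (SE 0.58), detected on 3 HFCD arrays and all controls, and -0.98 after normexp background correction and -0.97 without HFCD replicate 4. CD36 read 7.77, 8.40, 7.99 and 8.26 in controls and 6.30, 7.87, 7.25 and 4.68 under HFCD, lowest in the same HFCD replicates 1 and 4 that were low in platelet markers, and their part in its change was not tested.

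**Figure D2:**
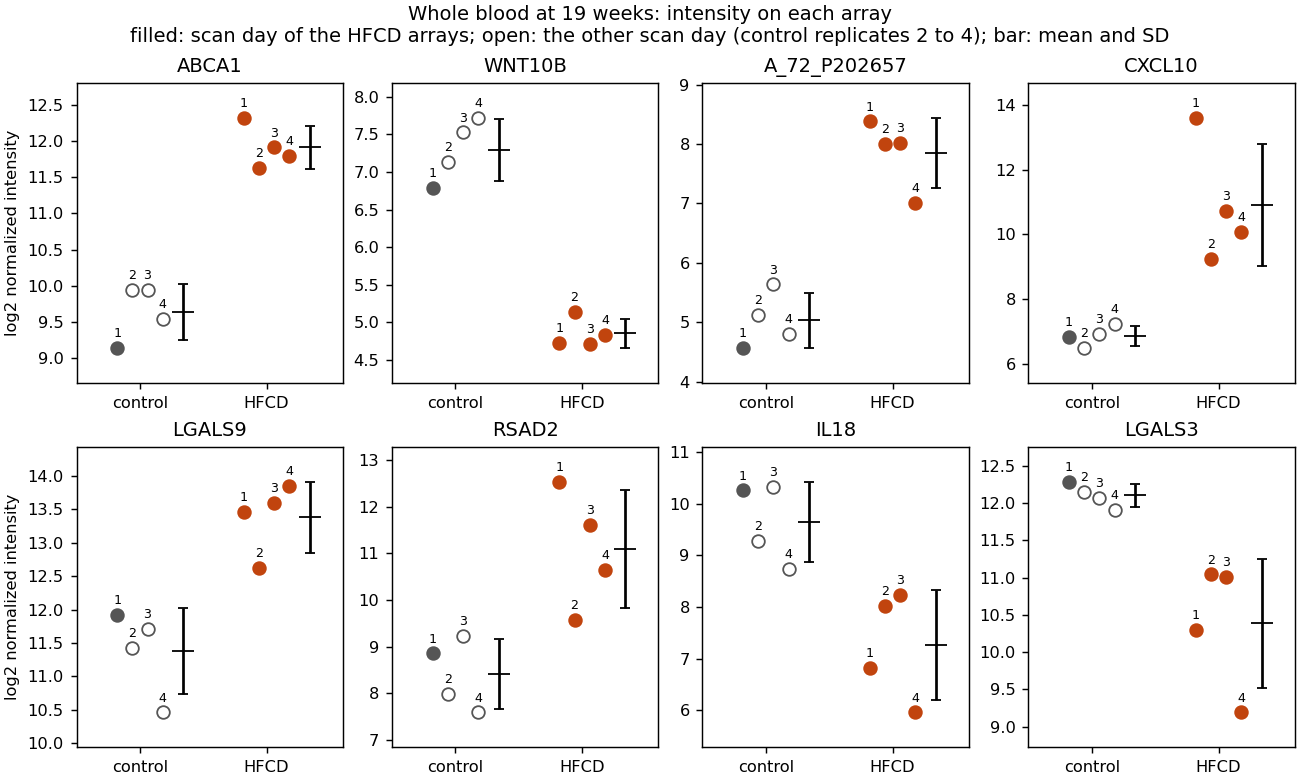
Log2 normalized intensity of 8 probes on each of the 8 whole blood arrays at 19 weeks, with replicate numbers beside the points and the mean and SD of 4 arrays as a bar. Filled points share the scan day of the HFCD arrays, and open points are control replicates 2 to 4. The groups do not overlap in any of the 8 panels, but groups apart was a condition for naming the genes of largest change. Of all tested probes 3.41% separated upward and 4.05% downward. HFCD replicate 1 gives the highest CXCL10 and RSAD2 values.

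Most interferon-induced genes were higher under HFCD. Of 12 effector genes on the array all were tested, 9 had a positive change, and 8 were higher at an unadjusted limma p under 0.05 (5.68% of all tested probes were), while none was lower and none passed adjustment. Without HFCD replicate 1 the count was 5. With a scan day term 4 were higher and 1 lower at that threshold, beside 3.24% and 2.62% of all tested probes. The negative changes were those of IFITM1, the brightest gene of the list, and of OAS1 and OAS2. The median change was 1.20, beside -0.03 over all tested probes. It was 0.95 within the scan day and 0.90 without HFCD replicate 1. Array by array, the median distance of the list from the control mean was 2.16, 0.49, 1.44 and 0.87 in HFCD replicates 1 to 4. Every HFCD array was thus on the high side, replicate 1 most and replicate 2 least.

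RSAD2 (viperin), an antiviral enzyme, read 8.86, 7.98, 9.23 and 7.60 in control replicates 1 to 4 and 12.54, 9.58, 11.61 and 10.66 in HFCD replicates 1 to 4. The groups did not overlap, although HFCD replicate 2 was close to control replicate 3. Its change was 2.68 (SE 0.58, adjusted p = 0.131), 2.20 without HFCD replicate 1 and 2.24 within the scan day. ISG20, an exonuclease that degrades viral RNA, read 10.59, 9.34, 10.74 and 9.18 in controls and 12.55, 11.05, 12.08 and 11.17 under HFCD, again apart, with a change of 1.75 (SE 0.44, adjusted p = 0.175) and 1.12 within the scan day. OASL, of the same family as OAS1 and OAS2, read 6.37, 7.64, 6.94 and 7.46 in controls and 10.46, 7.78, 8.53 and 7.84 under HFCD. It was apart by a narrow margin and its change of 1.55 (SE 0.63, adjusted p = 0.355) became 0.95 without HFCD replicate 1. MX2, a dynamin-like antiviral GTPase, had a change of 1.11 (SE 0.38, adjusted p = 0.286) on its brighter probe, and of 2.07 (adjusted p = 0.140) on its other probe. On the brighter probe HFCD replicate 2 (8.07) lay inside the control range and HFCD replicates 1, 3 and 4 above it.

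LGALS9 (galectin-9), a lectin induced by interferon gamma, was among the brighter genes of the list. Its main probe read 11.92, 11.42, 11.71 and 10.46 in controls and 13.47, 12.62, 13.59 and 13.85 under HFCD. All HFCD arrays lay above all controls, with a change of 2.00 (SE 0.36, adjusted p = 0.117), 1.98 without HFCD replicate 1 and 1.47 within the scan day. The annotation names the transcript as a urate transporter, and its RefSeq accession belongs to LGALS9. This probe and an overlapping one are shown because they repeat 1 measurement and do not count as 2, with the 55 bases they share in capitals.
LGALS9 main probe, change 2.00: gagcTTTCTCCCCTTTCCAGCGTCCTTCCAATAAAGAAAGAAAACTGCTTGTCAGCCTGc
LGALS9 overlapping probe, change 1.93: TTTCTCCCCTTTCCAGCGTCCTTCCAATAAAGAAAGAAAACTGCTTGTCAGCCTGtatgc

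Sensors and signalling genes of the interferon system form a list of their own, and its difference from the effectors was not tested. Of 17 tested genes 11 had a positive change (median 0.28, 0.41 within the scan day and 0.02 without HFCD replicate 1). At the unadjusted threshold 2 were higher and 1 was lower, beside 5.68% and 6.79% of all tested probes. DDX58 (RIG-I), the sensor of viral RNA, had a change of 1.48 (SE 0.58, adjusted p = 0.332), but only 0.12 within the scan day and 0.69 after normexp background correction. The other DDX58 probe gave 1.83 (limma adjusted p = 0.229), and the groups overlapped on both probes. STAT2, which carries the type I interferon signal, read 11.56, 11.03, 11.15 and 11.05 in controls and 11.96, 11.70, 11.73 and 12.05 under HFCD. Its groups were apart, with a change of 0.66 (SE 0.21, adjusted p = 0.239) and 0.30 within the scan day, and its other probes gave 0.48 and 0.80. IFNGR2, a chain of the interferon gamma receptor, read 9.79, 9.95, 11.09 and 10.32 in controls and 9.12, 9.43, 9.45 and 8.77 under HFCD, all lower than any control, with a change of -1.09 (SE 0.32, adjusted p = 0.222) and -0.60 within the scan day.

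Chemokines and cytokines spread in both directions. Of 30 tested genes 3 were higher and 4 lower at the unadjusted threshold (median 0.08, -0.18 within the scan day and 0.09 without HFCD replicate 1), and 3 of these 7, CCL8 and CCL3L1 among them, passed the detection filter only through the brighter group. Over all tested probes 5.68% were higher and 6.79% lower at that threshold. CXCL10, which attracts activated T cells and NK cells, had the largest positive change among the 1170 tested genes with a symbol. It read 6.84, 6.49, 6.93 and 7.23 in control replicates 1 to 4 and 13.60, 9.24, 10.71 and 10.07 in HFCD replicates 1 to 4. The controls lay within 1 log2 unit of each other, and every HFCD array was above them, HFCD replicate 1 by far the most. The means were 6.87 (0.31) and 10.90 (1.89), with a change of 4.03 (SE 0.83, adjusted p = 0.121), 3.14 without HFCD replicate 1 and 4.06 within the scan day. Its other probe was detected on every HFCD array and on no control array, so it passed the filter only through the brighter group and gives no second size for this change. The 2 CXCL10 probes are shown because they share no run above 6 bases.
CXCL10 main probe: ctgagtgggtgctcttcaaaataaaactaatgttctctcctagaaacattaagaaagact
CXCL10 other probe: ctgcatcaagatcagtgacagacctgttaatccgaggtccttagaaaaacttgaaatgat

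CCL8, a chemokine for monocytes, read 1.74, 3.28, 5.41 and 6.09 in controls and 7.89, 5.19, 6.79 and 5.60 under HFCD. It was detected on 2 control arrays and on all HFCD arrays, and control replicates 3 and 4 overlapped the HFCD values, so no size is given for its change. CCL3L1, an inflammatory chemokine, read 7.67, 6.96, 8.32 and 8.23 in controls and 5.64, 6.45, 6.20 and 4.38 under HFCD. Its HFCD arrays all lay below the controls, and 3 of them detected it. The change was -2.13 (SE 0.44), -2.01 within the scan day and -1.32 after normexp background correction.

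IL18, the inflammasome cytokine that drives interferon gamma production, read 10.25, 9.27, 10.32 and 8.73 in controls and 6.81, 8.03, 8.22 and 5.96 under HFCD. The HFCD arrays were all lower, replicates 1 and 4 most, with a change of -2.39 (SE 0.57, adjusted p = 0.168), -2.24 without HFCD replicate 1 and -3.00 within the scan day. Of the Toll-like receptors and adaptors 7 of 11 tested had a negative change (median -0.25). At the unadjusted threshold 2 were lower, beside 6.79% of all tested probes. That count was 0 with a scan day term, 1 without HFCD replicate 4 and 4 without HFCD replicate 2. The 2 genes were the endotoxin receptor TLR4 with -1.08 (SE 0.37, adjusted p = 0.286) and its co-receptor LY96 with -0.92 (SE 0.36, adjusted p = 0.325). The other TLR4 probes gave -0.56, -0.33 and -0.69, none past that threshold. The list's median was -0.57 within the scan day and -0.55 without HFCD replicate 1, but 0.02 without HFCD replicate 4. Array by array, the median distance of the list from the control mean was -0.09, -0.41, -0.14 and -0.78 in HFCD replicates 1 to 4. Every HFCD array was thus on the low side by that measure, replicate 4 most, and the list's median depended on that array.

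Peptide presentation was measured by its parts. Of 10 tested genes of MHC class I and peptide loading 9 had a positive change (median 0.51, 0.44 within the scan day and 0.52 without HFCD replicate 1). At the unadjusted threshold 2 were higher, beside 5.68% of all tested probes. That count was 1 with a scan day term and 4 without HFCD replicate 1. The 2 genes were the chains of the proteasome activator that interferon gamma induces. PSME1 read 11.23, 11.21, 11.07 and 11.20 in controls and 11.89, 11.74, 11.83 and 11.86 under HFCD. PSME2 read 11.63, 11.51, 11.08 and 11.14 in controls and 12.43, 12.26, 12.02 and 12.002 under HFCD. Both were higher on every HFCD array than on any control, by 0.65 (SE 0.21, adjusted p = 0.239) and 0.84 (SE 0.24, adjusted p = 0.211), or 0.59 and 0.55 within the scan day. Another probe of PSME2 gave 0.61 with overlapping groups. The 5 tested MHC class II genes turned direction with the scan day (median -0.13, 0.38 within the scan day and -0.21 without HFCD replicate 1), and none passed the unadjusted limma threshold.

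All 10 tested genes of the proteasome and ubiquitin list had a positive change, with a median of 0.55, and 5 were higher at the unadjusted threshold, beside 5.68% of all tested probes. That count was 0 with a scan day term, 3 without HFCD replicate 1 or control replicate 2, 2 without control replicate 4, and 1 without control replicate 3, HFCD replicate 3 or HFCD replicate 4. PSMD4, a ubiquitin receptor of the proteasome, had the largest change, 1.07 (SE 0.44, adjusted p = 0.353) and 1.80 on its other probe, but -0.07 within the scan day. PSME3, the nuclear proteasome activator, was higher by 0.75 (SE 0.24, adjusted p = 0.257), or 0.40 after normexp background correction, with the groups apart, PSMB7, a catalytic subunit, by 0.69 (SE 0.26, adjusted p = 0.320), and UCHL1, a ubiquitin hydrolase, by 0.82 (SE 0.32, adjusted p = 0.341). The changes of these last 3 within the scan day were 0.68, 0.23 and 0.21. The list's median was 0.46 without HFCD replicate 1. Within the scan day it was 0.19, beside 0.10 over all tested probes there, and 8 of the 10 changes were positive. This list's position therefore rests largely on control replicates 2 to 4.

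**Figure D3:**
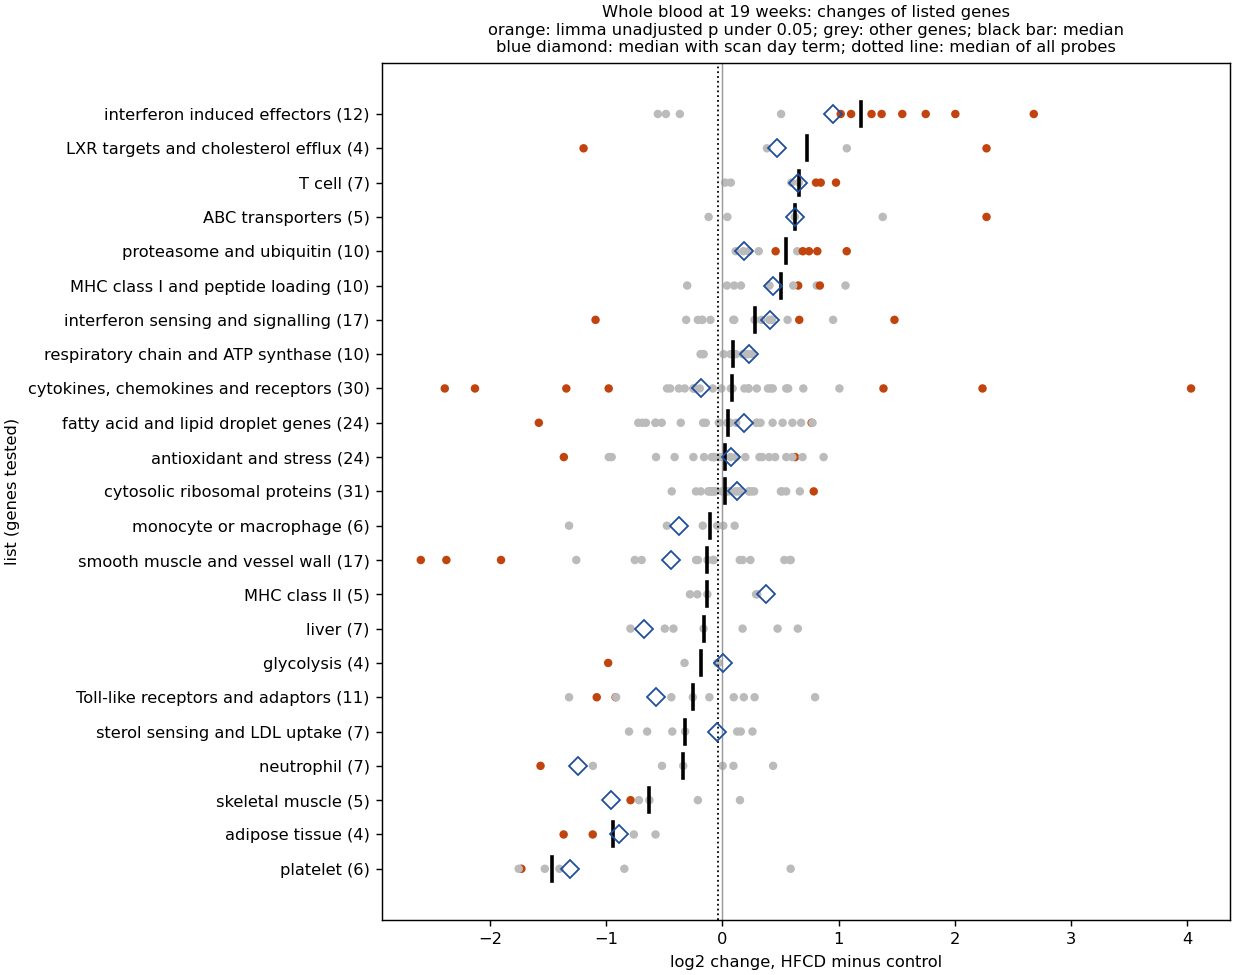
Log2 change (HFCD minus control, whole blood at 19 weeks) of each tested gene in the lists with at least 4 tested genes, orange where the unadjusted limma p was under 0.05. Black bars are list medians, blue diamonds the medians with a term for scan day, and the dotted line the median of all tested probes. The interferon-induced effectors have the highest median (1.20) and the platelet markers the lowest (-1.47).

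WNT10B was the only gene with a symbol that fell past adjustment. It read 6.79, 7.14, 7.53 and 7.72 in control replicates 1 to 4 and 4.72, 5.14, 4.71 and 4.83 in HFCD replicates 1 to 4. The HFCD arrays were tightly grouped and all far below the controls. The means were 7.29 (0.42) and 4.85 (0.20), a change of -2.44 (SE 0.25, adjusted p = 0.00940), with all 4 HFCD arrays below all controls. Without HFCD replicate 1 the change was -2.40 (adjusted p = 0.0182), and within the scan day -1.94, where the adjusted p was 0.244 (0.00191 to 0.707 over all settings other than leaving out an array). It was 0.0631 without control replicate 4 and 0.0633 without HFCD replicate 3. A second WNT10B probe was not detected on any of the 8 arrays, so the fall rests on a lone probe, and after normexp background correction it was -1.34. The WNT pathway list had 2 tested genes (median -1.08, -0.69 within the scan day and -1.22 without HFCD replicate 1), WNT10B and CTNNB1, the latter with a change of 0.29 (adjusted p = 0.770).

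The probes of ABCA1 and WNT10B and the unnamed probe past the threshold, A_72_P202657, are given so that these 3 calls can be traced to a transcript.
ABCA1 probe: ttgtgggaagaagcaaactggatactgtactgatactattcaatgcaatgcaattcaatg
WNT10B probe: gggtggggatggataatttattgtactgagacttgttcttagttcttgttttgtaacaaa
A_72_P202657: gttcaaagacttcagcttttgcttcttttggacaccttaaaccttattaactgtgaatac

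A_72_P202657 read 4.56, 5.13, 5.64 and 4.80 in controls and 8.38, 8.003, 8.02 and 7.01 under HFCD. All HFCD arrays were above all controls, with a rise of 2.82 (SE 0.32, adjusted p = 0.0126), 2.65 without HFCD replicate 1 and 3.29 within the scan day. Its adjusted p was 0.113 with a scan day term and 9.60e-08 to 0.404 over all settings other than leaving out an array. It was 0.0798 without control replicate 2, 0.0912 without control replicate 4, 0.0601 without HFCD replicate 2 and 0.0633 without HFCD replicate 3. After normexp background correction the change was 1.51 (adjusted p = 0.0872), and with no filter on dim probes the adjusted p was 0.0860. The files describe it as an expressed sequence of pig and pair it with no gene name. A different probe that the annotation places on the same assembled transcript, picked after its values were seen, also had its groups apart, but it was detected on 2 control arrays and all HFCD arrays, so it passed the filter only through the brighter group and does not support the call.

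Among the other probes with no gene name, A_72_P214952, from a library of infected pig blood cells, read 6.004, 6.73, 6.56 and 6.31 in controls and 9.79, 7.90, 9.01 and 8.41 under HFCD, a change of 2.38 (SE 0.45, adjusted p = 0.117) with the groups apart. A_72_P199992 read 4.78, 5.77, 6.05 and 5.58 in controls and 3.09, 1.46, 1.51 and 2.06 under HFCD. A_72_P225712 read 4.46, 6.09, 5.55 and 6.02 in controls and 1.62, 2.16, 1.98 and 2.20 under HFCD. These last probes were detected on every control array and on no HFCD array. For such probes the fold is a lower bound, with each undetected value raised to the dimmest detected value of its array. A_72_P199992 was at least 2.57-fold lower and A_72_P225712 at least 2.54-fold lower under HFCD. These bounds hold for the processed signal only: after normexp background correction the log2 changes were -0.68 and -0.71.

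LGALS3 (galectin-3), a lectin of macrophages, was bright and lower under HFCD, opposite to LGALS9. It read 12.29, 12.15, 12.07 and 11.90 in controls and 10.30, 11.04, 11.01 and 9.19 under HFCD. Every HFCD array was below every control, with a change of -1.71 (SE 0.39, adjusted p = 0.146), -1.69 without HFCD replicate 1 and -1.90 within the scan day, and its other probes gave -1.75 and -1.98. MGP, an inhibitor of vessel calcification, read 8.14, 7.82, 8.45 and 9.45 in controls and 6.22, 6.64, 6.67 and 6.71 under HFCD. It was lower on all HFCD arrays, with a change of -1.91 (SE 0.36, adjusted p = 0.117) and -1.58 within the scan day. The smooth muscle and vessel wall list around it had 17 tested genes (median -0.13, -0.44 within the scan day and 0.03 without HFCD replicate 1), with MGP and ACTA2 lower at the unadjusted threshold, beside 6.79% of all tested probes, not counting CNN1. The smooth muscle actin ACTA2 read 7.05, 10.09, 8.41 and 10.64 in controls and 5.57, 6.42, 8.56 and 6.14 under HFCD. Control replicates 2 and 4 were high and the groups overlapped, so that its change of -2.38 (SE 0.92, adjusted p = 0.328) was -0.38 within the scan day. CNN1 (calponin) was detected on all control arrays and on 2 HFCD arrays, and the groups overlapped, so neither a call nor a size is given for its change.

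Further genes with groups that did not overlap have roles outside these lists. Among higher genes, RGS1, a brake on chemokine receptor signalling, read 4.65, 4.96, 3.66 and 4.07 in controls and 6.62, 5.63, 5.76 and 6.17 under HFCD, a change of 1.71 (SE 0.34), and 0.60 after normexp background correction. It was detected on 3 control arrays and all HFCD arrays. The complement protease C1R was higher by 1.24 (SE 0.30, adjusted p = 0.168), the Golgi protein gene ACBD3 by 1.00 (SE 0.24, adjusted p = 0.168), with 0.65 on its other probe, and the calcium pump ATP2B1 by 1.38 (SE 0.41, adjusted p = 0.221). Control replicate 1 was the highest control for ACBD3 and ATP2B1, and their changes within the scan day were 0.43 and 0.27. The other 2 probes of ATP2B1 gave 0.15 and 0.20.

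Among lower genes, MAOA, which oxidises serotonin and noradrenaline, read 7.62, 7.94, 7.54 and 7.92 in controls and 5.92, 6.58, 6.71 and 4.13 under HFCD, a change of -1.92 (SE 0.51), and -0.95 after normexp background correction, with 3 HFCD arrays and all controls detecting it. Its other probe gave -0.86 with overlapping groups. SOD2, the mitochondrial superoxide dismutase, was lower, with a change of -1.36 (SE 0.33, adjusted p = 0.168), and -0.51 on its other probe. The mucin gene MUC19 was detected on all control arrays and on 1 HFCD array, and its HFCD values all lay below the controls, with no size given for its change. TCTEX1D4 and the connexin gene GJA4 were not detected on any HFCD array and were at least 2.28-fold and at least 1.95-fold lower in the processed signal, with log2 changes of -0.50 and -0.47 after normexp background correction, below those bounds.

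Housekeeping lists stayed near the middle of all probes. The 31 tested ribosomal protein genes had small changes (median 0.02, 0.12 within the scan day and -0.08 without HFCD replicate 1), and RPL5 alone passed the unadjusted threshold, with 0.79 (SE 0.28, adjusted p = 0.297) and 0.30 within the scan day. The 10 tested respiratory chain genes were similar (median 0.09, 0.23 within the scan day and -0.12 without HFCD replicate 1), with none past the unadjusted limma threshold. The 24 tested antioxidant and stress genes spread around 0 (median 0.02, 0.08 within the scan day and 0.02 without HFCD replicate 1). SOD2 was lower and 1 other gene higher at that threshold, beside 6.79% and 5.68% of all tested probes. Of 4 tested glycolysis genes (median -0.19, 0.01 within the scan day and -0.14 without HFCD replicate 1) PGK1 was lower, with a change of -0.98 (SE 0.31, adjusted p = 0.245), and -0.30 within the scan day.

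Across all tested probes, 2072 (12.5%) had an unadjusted limma p under 0.05, 944 of them higher and 1128 lower. Of these, 379 had passed the detection filter only through the brighter group, and the shares of all tested probes given above include them. The filter let in 2171 probes through the control arrays only and 259 through the HFCD arrays only. The split between higher and lower is therefore not free of the filter. By the criterion of the study's methods, an unadjusted difference with a fold above 2 or below 0.5, 243 probes (1.46%) were higher and 305 (1.84%) lower. Against control replicate 1 alone, 108 of the 243 kept a mean difference above 2-fold and 205 of the 305 a mean difference below 0.5-fold. Of the criterion's probes 190 higher and 178 lower ones were detected on all 8 arrays. 36 of the lower probes were detected on no HFCD array, and 4 of the higher ones on no control array. The criterion's count was 911 without control replicate 1 and 336 without control replicate 3. It was 1075 with a weaker flag for presence and 177 after normexp background correction. The methods' t-test had 1834 probes at an unadjusted p under 0.05 and 0 after Benjamini-Hochberg adjustment. The limma count past adjustment was 3 and changed with the fit. It was 0 with a scan day term (limma, smallest adjusted p 0.0595, 973 probes at an unadjusted p under 0.05) and 0 without control replicate 4 or without HFCD replicate 3 (1294 and 1821 probes unadjusted). It was 7 without control replicate 1, and 530 when all 45 arrays shared a fit (18 with a scan day term).

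The same diet was measured in whole blood at 10 and 27 weeks with other arrays, so each change can be set beside its own earlier and later value. With 5 pigs per diet the periods share animals, which the labels do not identify, and the tests between periods treat the arrays as independent. ABCA1 ranged from 9.26 to 9.65 in controls and from 11.28 to 12.22 under HFCD at 10 weeks, and from 9.84 to 10.41 and 12.33 to 12.49 at 27 weeks. Its change was 2.38, 2.27 and 2.42 at 10, 19 and 27 weeks. The groups were apart each time, and the change at 19 weeks differed from the others by -0.11 and -0.15 (adjusted p = 0.944 and 0.997). The WNT10B groups overlapped at 10 weeks, with controls from 5.22 to 6.65 and HFCD from 5.13 to 7.23, and its change was -0.18, -2.44 and -1.01 in turn. The difference of -2.26 between 19 and 10 weeks did not pass adjustment (limma adjusted p = 0.347), nor did that of -1.43 between 19 and 27 weeks (adjusted p = 0.997).

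The interferon-induced effectors had list medians of 1.21 at 10 weeks and 1.01 at 27 weeks beside 1.20 at 19 weeks. At an unadjusted limma p under 0.05, 9 of the 12 were higher at 10 weeks and 7 at 27 weeks. Over all probes the shares were 5.44% and 3.12%, and no gene of the list passed adjustment at either period. CXCL10 changed by 2.98 at 10 weeks and 2.93 at 27 weeks, RSAD2 by 2.31 and 2.48, and SQLE by -1.44 and -1.72. RGS1 stood at 0.08 at 10 weeks and 0.36 at 27 weeks, CCL3L1 at -0.17 and -0.93, DEFB1 at -0.14 and -0.49, and IL18 at -0.77 and -1.23. These genes were named for their changes at 19 weeks, which favours a larger change there, and RGS1 and CCL3L1 passed the filter at 19 weeks only through the brighter group, so the comparison does not place their change at 1 period. None of these differences from 19 weeks passed adjustment (limma, 1674 probes at an unadjusted p under 0.05 against 10 weeks and 577 against 27 weeks). The proteasome list had medians of 0.03 at 10 weeks and 0.11 at 27 weeks, and the T cell list 0.17 and 0.32.

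**Figure D4:**
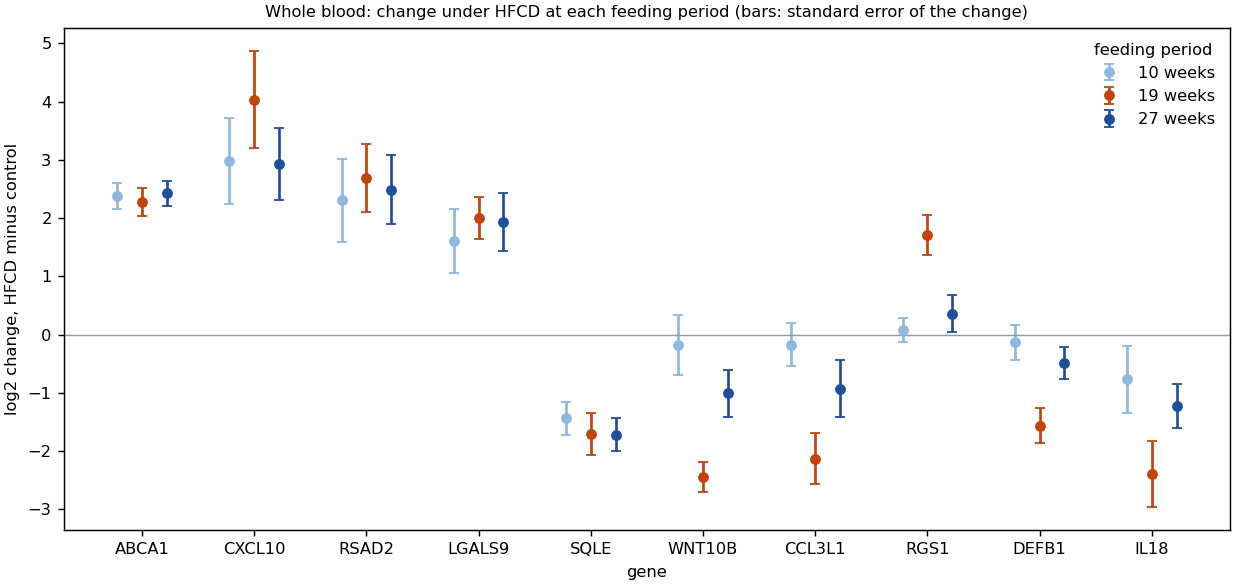
Log2 change (HFCD minus control) of 10 genes in whole blood at 3 feeding periods (10, 19 and 27 weeks), each from its own arrays, with bars for the standard error of the change. Each of the 10 changes keeps its sign over the 3 periods, and no difference of 19 weeks from 10 or 27 weeks passed adjustment.

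Across all probes, the change at 19 weeks differed from that at 10 weeks past adjustment for 0 of 18351 probes (limma; 1674 at an unadjusted p under 0.05, 9.12%), and from that at 27 weeks for 0 of 18439 (577 unadjusted, 3.13%), a percent_called of 0 past adjustment in each. Without control replicate 1, 27 probes differed between 19 and 10 weeks, and 1 did without HFCD replicate 3. With a scan day term 3 probes differed between 19 and 10 weeks, and 5 between 19 and 27 weeks. At 10 weeks, and again at 27 weeks, the control and HFCD arrays of whole blood shared a scan day. The changes at 19 weeks correlated across probes at r = 0.255 with those at 10 weeks (16028 probes) and at r = 0.534 with those at 27 weeks (16360 probes), where probes are not independent replicates.

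The HFCSD group of the same week shared the scan day of the HFCD arrays and was compared with the same 4 control arrays. Its values are therefore only set beside those of HFCD. ABCA1 read 12.08, 11.90 and 12.03 on the 3 HFCSD arrays, a change of 2.36 beside 2.27 under HFCD. WNT10B read 4.86, 5.41 and 5.27, a change of -2.12 beside -2.44. CXCL10 read 8.72, 11.36 and 11.07, a change of 3.51 beside 4.03. HFCSD arrays stood on the HFCD side of all controls in these genes. The interferon-induced effectors had a median of 0.74 under HFCSD and 1.20 under HFCD, the T cell list 0.75 and 0.66, and the proteasome list 0.54 and 0.55. MGP changed by -0.91 under HFCSD and -1.91 under HFCD, and CD36 by -0.42 and -1.58.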

How the data were processed

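RNA of each whole blood sample was hybridized to its own 1-colour Agilent porcine array. The authors deposited an intensity for each spot, from which Feature Extraction (10.5.1.1 per the file headers, 9.5.3.1 per the labels) had subtracted background within the array. The authors also deposited these intensities after quantile normalization in GeneSpring, and that version served as an alternative.

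Spots that the software had marked as outliers were left out, and log2 intensities were quantile normalized over all 45 arrays. The spots of a probe were averaged. A probe was tested when well above background on every usable array of the control or HFCD group. The 4 control, 4 HFCD and 3 HFCSD arrays of whole blood at 19 weeks were fitted in limma 3.58.1 (R 4.3.3), and p-values were adjusted over 16613 probes by Benjamini-Hochberg, with a threshold of 0.05. Differences between feeding periods came from a fit of all 33 whole blood arrays by diet and period, which treats the arrays as independent although the periods share pigs. In simulated data of the same size, 37 of 50 probes given a change of 2 on the log2 scale were called, beside 6 unchanged probes. The simulated errors were independent between probes, with no scan day difference and no array standing apart. That count checks the fit and does not give the power of the real comparison.

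Gene names came from RefSeq accessions, gene names or annotated similarity, which left 40380 probes without a name. Named are probes past adjustment, the 10 genes with the largest positive and negative changes among those with an unadjusted p under 0.05 and groups apart, up to 4 members of each list by size of change, the brightest marker of each cell type, 7 genes that the study lists, and 2 unnamed probes in each direction. Other genes are named only by their level or detection, or to complete a small count, after their values were seen. Some items are not reported here. Each gene was represented by its brightest probe. Members and lists were chosen with earlier results of these data known. Tables and figures used the data.table package (1.17.8), Python 3.11.15, pandas 2.3.3 and matplotlib 3.10.9.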

Additional observations from a re-analysis of the deposited data

Results flagged for a closer look

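In 5 of 140 groups of 4 arrays examined, 1 array lay far from the other 3 relative to the group's range, and chance alone gives this in about 1 of 20 groups. HFCD replicate 1 accounts for 3 of them. Its mean correlation with the rest of its group was 0.8666, against 0.9318 to 0.9393 for the others. Its red cell marker sum, which is HBE1 alone, was 4441 against 19180 to 19620. Its MGP value was 6.219 against 6.644 to 6.709.

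Control replicate 1, the control scanned with the diet arrays, had a mean correlation of 0.9344 within its group, against 0.9605 to 0.9658 for control replicates 2 to 4. Control replicate 4 had the lowest MX2 value among controls, 7.692 against 8.207 to 8.312. The causes were not tested.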

How the results depend on the processing

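The count of 3 probes past adjustment was 0 with a scan day term, 0 with only the scan day of the diet arrays, 0 with the share of detected spots as a covariate and 0 by the methods' t-test after adjustment (973, 647, 1473 and 1834 probes at an unadjusted p under 0.05). It was 7 with only the 2 groups in the fit, 530 with all 45 arrays and 18 with all 45 arrays and a scan day term. Leaving out 1 array at a time gave 0 to 9 probes: 0 without control replicate 4 or HFCD replicate 3, 7 without control replicate 1 and 9 without HFCSD replicate 3.

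The methods' criterion gave 548 probes, 177 after normexp background correction, 1075 with a weaker flag for presence, 1150 with no filter on dim probes, and 336 to 911 when 1 array was left out (336 without control replicate 3, 911 without control replicate 1). Changes that differed between 19 and 10 weeks numbered 3 with a scan day term and 0 to 27 when 1 array was left out, and those between 19 and 27 weeks 5 with that term and 0 without any 1 array (limma, 577 at an unadjusted p under 0.05 with all arrays). The share of detected spots differed by -5.791 points with the weaker flag (exact permutation p = 0.0286, the smallest possible), and by -5.54 to -2.30 points when 1 array was left out.

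PLTP turned from 1.07 to -0.2739, ABCB4 from 1.38 to -0.3126 and PSMD4 from 1.07 to -0.07366 with a scan day term, with only the scan day of the diet arrays, and with all 45 arrays and a scan day term. The cause was not tested.

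The labels do not say whether replicate numbers pair control and HFCD pigs, and the main fit treats them as unpaired. Deviations of same-numbered arrays correlated at -0.48, -0.09, -0.18 and -0.13, and those of other pairs at -0.37 to 0.42. These few values, taken from group means of the same arrays, do not decide it. With replicate number as a block, 0 probes passed adjustment (limma, 1705 unadjusted), and the share difference stayed -4.43 (exact permutation within blocks p = 0.250, smallest possible 0.125).

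Over all settings, 1408 changes of named probes kept direction and call, 30 gained a call past adjustment and 23 lost it. All 23 losses were of the 3 probes past adjustment, because the other named probes had no call to lose. The tally therefore does not measure how stable those 3 calls were. List medians were added as a result after the data were seen. Of these, 674 moved by less than the SD of the list's medians on the 4 HFCD arrays, and 54 moved by that or more.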

Other observations

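Within the 4 HFCD pigs, chemokine and platelet transcripts differed widely. HFCD replicate 1 had the highest CXCL10 (13.60), RSAD2 (12.54) and CD8A (10.63) values of the 8 arrays, together with low platelet transcripts, while HFCD replicate 4 also had low platelet transcripts (PPBP 6.34) and a CXCL10 value of 10.07. HFCD replicate 4 was also the lowest array for IL18 (5.96), LGALS3 (9.19) and MAOA (4.13).

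CD14, a monocyte receptor, read 10.14, 10.42, 10.69 and 9.92 in the controls and 7.17, 10.09, 9.88 and 8.75 under HFCD. HFCD replicates 1, 3 and 4 were lower than any control, replicate 3 narrowly. The acute-phase gene CRP read 9.68, 8.67, 8.02 and 7.76 in controls and 6.09, 9.73, 10.09 and 10.12 under HFCD. HFCD replicates 2 to 4 were thus above all controls, replicate 2 narrowly, and HFCD replicate 1 below them. Its change was 0.47 (SE 0.84, limma adjusted p = 0.863). As with PLTP and ABCB4, control replicate 1, scanned with the HFCD arrays, was the highest control.

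The array holds few named probes, with 3215 of 43603 matched to 1 gene symbol. Diet and scan day are bound together except through control replicate 1, and all values of 19 weeks rest on 4 pigs per group. Whole blood RNA does not separate cell number from transcription within cells.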
